A study of Homo sapiens with 4 samples.

Results

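The BCL2 survival proteins are the members of the BCL2 family that keep a cell alive. They were taken as BCL2, BCL2L1, BCL2L2, BCL2L10, BCL2A1 and MCL1, and every probe that the array's design names for one of these 6 genes was kept, which gave 11 of the 40974 probes tested and 6 of 30484 gene names. The RNA came from Meg-01, an established human megakaryoblastic leukemia cell line. GATA1 5-13 and GATA1 4-14 are 2 clones that stably carry an shRNA against GATA1, a transcription factor of megakaryocytes and red cells. GATA1 Neg is a pool of Meg-01 cells infected with a lentivirus whose shRNA has little homology to known human genes, and all 3 RNAs thus come from lentivirus-infected cells. The knockdown samples are clones and the control is a pool, so a difference between them can hold clonal variation, and it cannot be told apart from the knockdown. Each clone was hybridized against GATA1 Neg on 2 two-colour Agilent arrays of opposite dye orientation, and all 4 arrays lay on 1 slide. On replicate 1 of each clone the clone's RNA carried Alexa647 and on replicate 2 it carried Alexa555. The text on RNA extraction in the labels names clones of CMK, another megakaryoblastic line, whereas all other labels name Meg-01.

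Survival proteins hold the effectors BAX and BAK1 in check at the outer mitochondrial membrane. BH3-only proteins such as BIM, PUMA and NOXA bind into a groove of the survival proteins and release the effectors, which then open the membrane and let cytochrome c reach the apoptosome and its caspases. Megakaryocytes and platelets depend on Bcl-xL, the long product of BCL2L1, and Bcl-xL also protects maturing red cells. MCL1 is a short-lived protein that blood cell precursors need. The study asked whether lower GATA1 alters survival and drug response of these leukemia cells, with Bcl-xL as the candidate between them.

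The start of BCL2L1 is shown here because this gene was the study's candidate for control by GATA1. The sequence is the 250 bases before the start site of the outer RefSeq promoter window, on the minus strand of GRCh38.p14 at chr20:31723964-31724213. Capitals would mark a GATA motif, searched on both strands. One spelling was AGATAA. One ended in G instead, as AGATAG. The others began with T and were TGATAA and, with G as the last letter, TGATAG.
BCL2L1 upstream: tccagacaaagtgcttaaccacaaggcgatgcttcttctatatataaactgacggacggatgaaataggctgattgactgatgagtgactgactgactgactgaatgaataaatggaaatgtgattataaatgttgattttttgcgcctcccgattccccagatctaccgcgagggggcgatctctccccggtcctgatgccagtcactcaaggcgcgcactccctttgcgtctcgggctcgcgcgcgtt
It has no capitals. Of all 35116 promoter windows in the table, each with 250 bases before and 50 after a start site, 25% hold at least 1 of these motifs. The 4 windows of the survival genes, 2 of BCL2L1 and 1 each of BCL2 and BCL2A1, hold 0. That says only that these letters are not in these windows. The study reported GATA1 binding, by chromatin immunoprecipitation, at a Bcl-x promoter region with putative GATA1 sites. It also reported activation of a Bcl-x promoter reporter by GATA1. The primers of its binding assay do not occur in the bases shown. They bound a longer stretch than is shown, so their absence cannot tell whether that assay covered these bases. MCL1, BCL2L2 and BCL2L10 have no window in the table.

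GATA1, the targeted gene, was read by 1 probe (A_24_P374244, chrX:48535797-48536559 on hg18, the build of all probe positions given here). Its log2 ratio of clone over GATA1 Neg was -0.21 and -0.34 on the arrays of GATA1 5-13 and -0.43 and -0.58 on those of GATA1 4-14. It was below 0 on all 4 arrays, and the clones held 82.7% and 70.6% of the GATA1 Neg level. The mean of the clones was -0.39 ± 0.16 (SD, n = 2 clones), with an adjusted p of 0.603 by limma with Benjamini-Hochberg adjustment over all probes. Over all 40974 probes this test called 0 at an adjusted p under 0.05 and 3046 at an unadjusted p under 0.05. The study itself reported lower GATA1 transcript in both clones by real-time RT-PCR. By western blot it reported a larger decrease of GATA1 protein in each clone than this probe read for the transcript. Between 61.6% and 66.4% of spots were well above background in a channel, and 0 spots were saturated.

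Of the 11 probes of the survival genes, 8 were well above background in both RNAs on all 4 arrays, against 58.1% of all probes. The other 3 were not well above background in either RNA on any array, which was so for 31.1% of all probes. MCL1 had 3 probes above background, BCL2 had 2, and BCL2L1, BCL2L2 and BCL2A1 had 1 each. BCL2L10, a family member known mainly from egg cells, had a single probe, and it was among the 3 dim ones. Between the arrays of a clone, the median absolute difference in log2 ratio over all probes above background was 0.11 in GATA1 5-13 and 0.11 in GATA1 4-14. These arrays differ in dye orientation, so the difference holds any dye effect together with the error of an array.

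**Figure D1:**
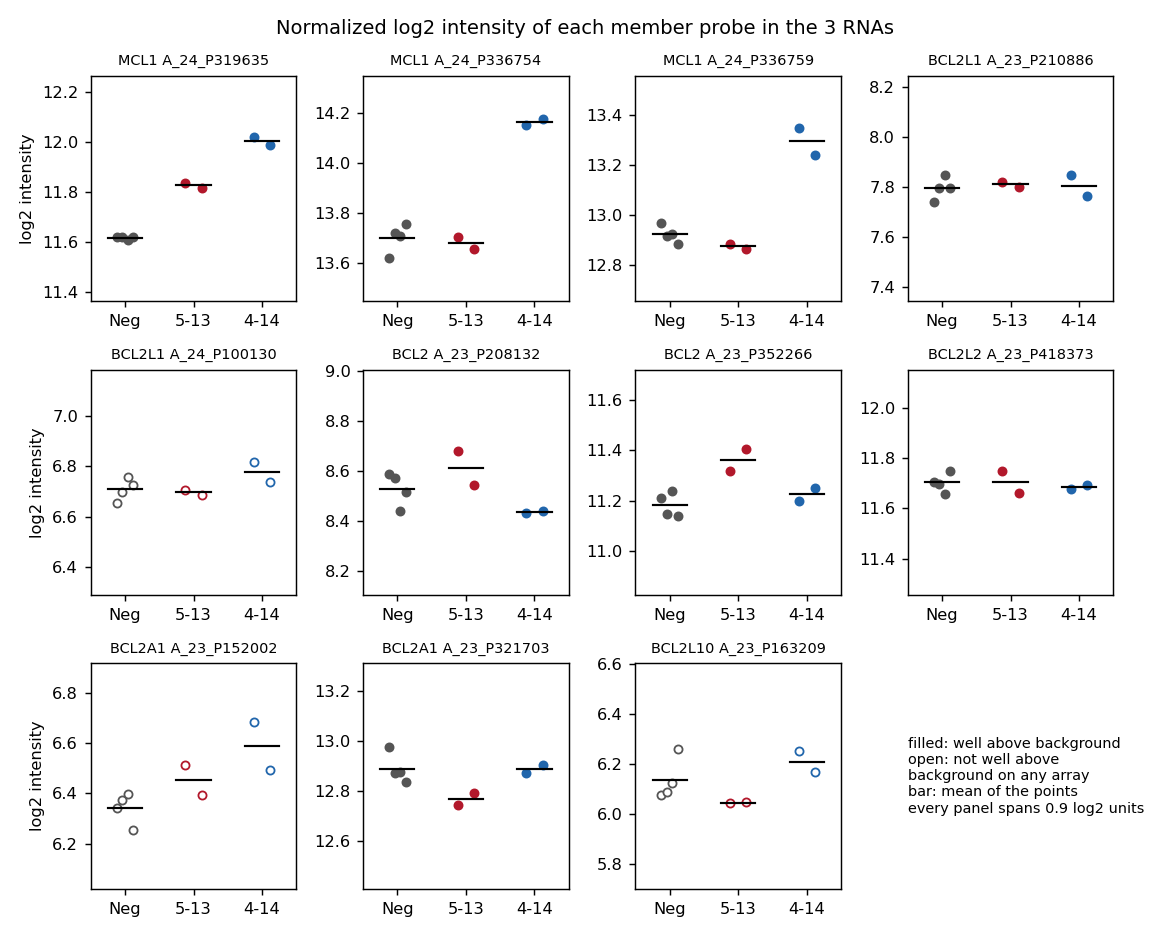
Normalized log2 intensity (vertical axis, every panel spanning 0.9 log2 units) of each survival gene probe in GATA1 Neg (4 arrays), GATA1 5-13 (2 arrays) and GATA1 4-14 (2 arrays), with bars for means and open points for probes not well above background. All 3 MCL1 probes lie higher in GATA1 4-14 than in GATA1 Neg, and the BCL2L1 probe A_23_P210886 lies near 7.8 in all 3 RNAs; levels can be compared within a panel but not between panels.

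MCL1 was the survival gene with the highest log2 ratios. By western blot, the study itself found Mcl-1 protein in the knockdown cells similar to that of GATA1 Neg. The probe A_24_P319635 (chr1:148817362-148817421, minus strand) is assigned by the array's design to transcript variant 1 alone, which encodes the long survival protein. Its log2 ratio was 0.21 and 0.20 in GATA1 5-13, and 0.41 and 0.37 in GATA1 4-14. All 4 arrays were above 0, and the arrays of a clone differed by 0.016 and 0.045, less than the clones differed from each other (0.18). The clones thus held 115% and 131% of the GATA1 Neg level. In normalized log2 intensity, the 4 values of GATA1 Neg lay between 11.61 and 11.62. Those of GATA1 5-13 were 11.84 and 11.82, and those of GATA1 4-14 were 12.02 and 11.99. These are array readings of the clones and the pool and do not count as replicates.

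The mean log2 ratio of this MCL1 probe was 0.30 (SE 0.075, 95% confidence interval 0.06 to 0.53, n = 2 clones). The unadjusted p was 0.027 and the adjusted p 0.631 by limma with Benjamini-Hochberg adjustment over all probes, so the difference did not pass. It was the only one of the 11 probes at an unadjusted p under 0.05, where 7.43% of all probes lay in either direction and 3.39% with a higher ratio. With the 4 Feature Extraction log ratios combined by their errors, a mean that takes no account of the spread between clones, the value was 0.31 at an adjusted p of 0.037, and the call was then made for 4.02% of all probes as higher.

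The other 2 MCL1 probes lie toward the 3′ end and are assigned by the design to both transcript variants, the second of which encodes a short protein that promotes cell death. A_24_P336754 (chr1:148813852-148813911) had log2 ratios of 0.09 and -0.06 in GATA1 5-13, and 0.44 and 0.42 in GATA1 4-14. A_24_P336759 (chr1:148814246-148814305) had -0.08 and -0.05 in GATA1 5-13, and 0.42 and 0.36 in GATA1 4-14. Both were high on the arrays of GATA1 4-14 alone, at 135% and 131% of GATA1 Neg, and stood at 101% and 95.5% in GATA1 5-13. Their means over the clones were 0.22 (SE 0.13, adjusted p = 0.744) and 0.16 (SE 0.14, adjusted p = 0.809) by limma, and neither passed.

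In GATA1 4-14 the 3 MCL1 probes gave clone values of 0.39, 0.43 and 0.39, in the order described, whereas in GATA1 5-13 they gave 0.21, 0.01 and -0.07. The log2 ratio of the variant 1 probe minus the mean of the other 2 was 0.21 and 0.26 on the arrays of GATA1 5-13. On those of GATA1 4-14 it was -0.02 and -0.02. A clone is 1 replicate, so this difference between the clones has no test, and the part of probe position in it was not tested.

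**Figure D2:**
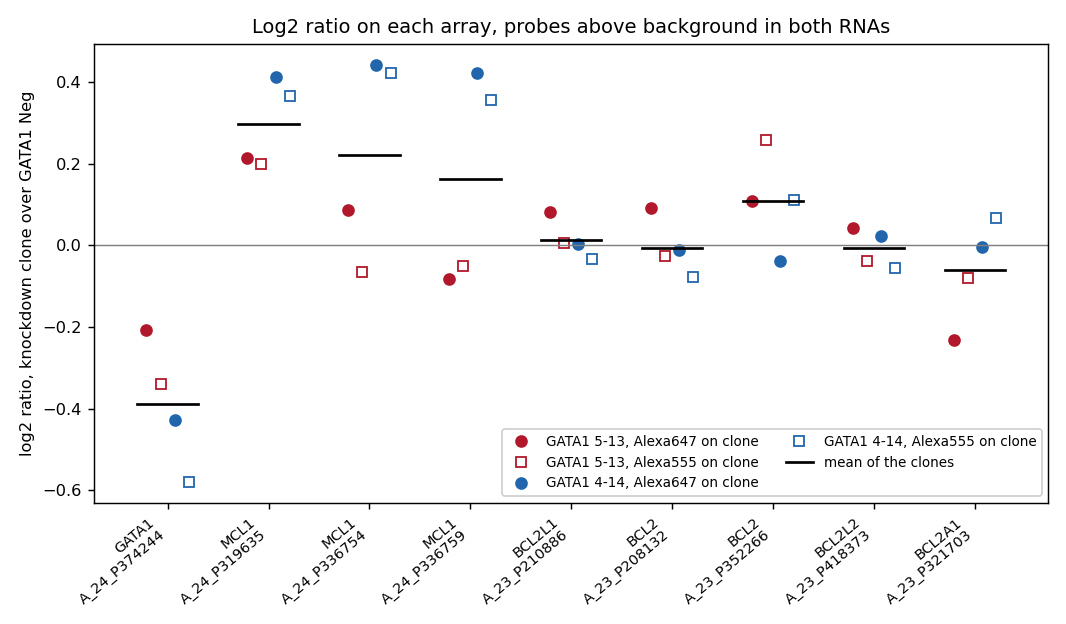
Log2 ratio of clone over GATA1 Neg (vertical axis) on each of the 4 arrays for GATA1 and the 8 survival gene probes above background in both RNAs, with the fill of a point for the dye orientation and a bar for the mean of the clones. GATA1 lies below 0 and MCL1 A_24_P319635 above 0 on all 4 arrays, while the other MCL1 probes are high in GATA1 4-14 alone.

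BCL2L1 was measured by A_23_P210886 (chr20:29716985-29717044, minus strand), which the design assigns to both transcript variants, so Bcl-xL and the short, death-promoting Bcl-xS cannot be told apart by it. The log2 ratio was 0.08 and 0.005 in GATA1 5-13, and 0.002 and -0.03 in GATA1 4-14. The clones stood at 103% and 98.9% of GATA1 Neg. The mean of 0.01 (SE 0.056, adjusted p = 0.968 by limma, n = 2 clones) had a 95% confidence interval from -0.16 to 0.19, which is 89.4% to 114% of GATA1 Neg. A change of BCL2L1 within these bounds was not detectable with 2 clones. The study itself reported lower Bcl-xL transcript, by real-time RT-PCR, and lower Bcl-xL protein in the knockdown cells.

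This probe was spotted 10 times on each array, which shows the error within an array. On the arrays of GATA1 5-13 the spots gave 0.08 ± 0.055 (SD, n = 10 spots) and 0.005 ± 0.076 (n = 9), and on those of GATA1 4-14 they gave 0.002 ± 0.053 (n = 10) and -0.03 ± 0.029 (n = 9), with 1 outlier spot left out on each array where n is 9. Spots above 0 numbered 9, 4, 6 and 1 on the 4 arrays, so spots lay on both sides of 0 on every array. The probe was dim, at a normalized log2 intensity from 7.74 to 7.85 in GATA1 Neg. The mean was 0.007 without background correction, 0.02 with an offset of 10 and 0.03 with the log ratios of Feature Extraction. The main processing adds an offset of 50 to the intensities, which pulls ratios of dim probes toward 0. The confidence interval given above holds for that processing. The other BCL2L1 probe, A_24_P100130 (chr20:29773576-29773635), is assigned to the Bcl-xS variant alone and was not well above background in any RNA, so it gives no ratio.

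BCL2, the founding member of the family, was read by 2 probes above background. The study itself did not detect Bcl-2 protein in these cells by western blot. A_23_P352266 (chr18:58941703-58941762, minus strand) is assigned to the alpha transcript and had log2 ratios of 0.11 and 0.26 in GATA1 5-13, and -0.04 and 0.11 in GATA1 4-14. Its 10 spots per array were tight, with SDs from 0.032 to 0.045, and 10, 10, 2 and 10 of 10 spots lay above 0. The ratio was 0.15 higher with the clone in Alexa555 than in Alexa647 in both clones, so the arrays of a clone differed by more than the spots of an array. The mean of the orientations was 0.18 in GATA1 5-13 and 0.04 in GATA1 4-14. Over the clones it was 0.11 (SE 0.068, 95% confidence interval -0.10 to 0.32), with an adjusted p of 0.747 by limma.

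**Figure D3:**
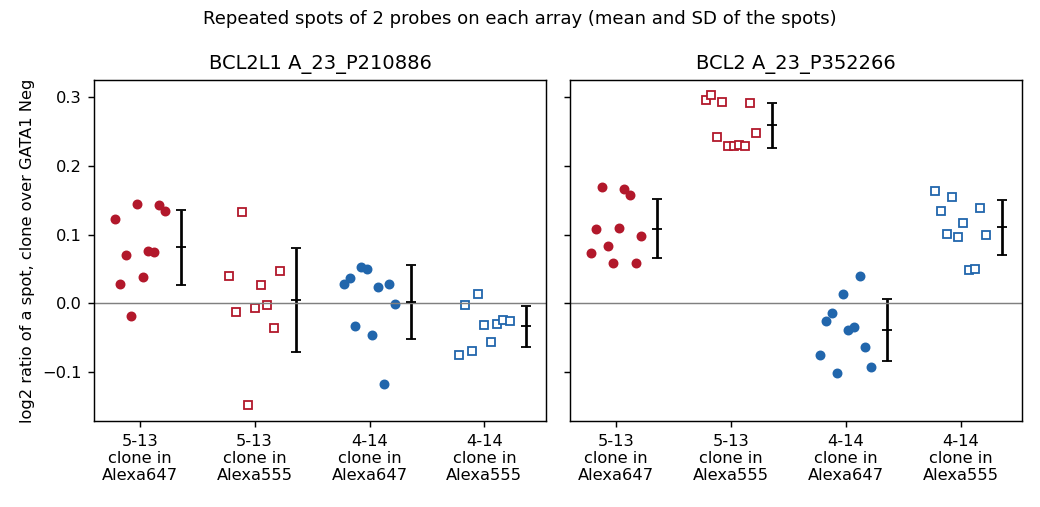
Log2 ratio of every spot used (vertical axis) of the BCL2L1 and BCL2 probes that were spotted 10 times on each of the 4 arrays (horizontal axis), with the mean and SD of the spots. The BCL2L1 spots lie around 0, and the BCL2 spots lie higher on the array of each clone with the clone's RNA in Alexa555.

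The other BCL2 probe, A_23_P208132 (chr18:59136115-59136150), is assigned to the beta transcript. Its log2 ratios were 0.09 and -0.03 in GATA1 5-13, and -0.01 and -0.08 in GATA1 4-14. The arrays lay on both sides of 0, and the mean was -0.006 (SE 0.058, 95% confidence interval -0.19 to 0.18, adjusted p = 0.987 by limma). The alpha probe exceeded the beta probe by 0.15 in GATA1 5-13 and by 0.08 in GATA1 4-14, which rests on the arrays with the clone in Alexa555, since the differences were 0.02 and -0.03 in the other orientation and 0.29 and 0.19 in this one.

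BCL2L2 encodes BCL-w, a close relative of Bcl-xL. Its probe A_23_P418373 (chr14:22850500-22850559) had log2 ratios of 0.04 and -0.04 in GATA1 5-13, and 0.02 and -0.06 in GATA1 4-14. The sign followed the dye orientation in both clones, and the clones stood at 100.2% and 98.8% of GATA1 Neg. The mean was -0.008 (SE 0.054, 95% confidence interval -0.18 to 0.16, adjusted p = 0.983 by limma).

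BCL2A1 encodes A1, a survival protein of blood cells that NF-kappaB induces. Its probe A_23_P321703 (chr15:78040290-78040322) had log2 ratios of -0.23 and -0.08 in GATA1 5-13, and -0.004 and 0.07 in GATA1 4-14. GATA1 5-13 was lower on both arrays, at 89.8% of GATA1 Neg, and GATA1 4-14 lay on both sides of 0 at 102%. The mean was -0.06 (SE 0.076, 95% confidence interval -0.30 to 0.18, adjusted p = 0.873 by limma). The other BCL2A1 probe, A_23_P152002 (chr15:78050191-78050250), is assigned to the same transcript but was not well above background in any RNA.

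The 3 dim probes had little signal. After subtraction of the local background, the intensity of the dim BCL2A1 probe ran from 15.2 to 48.8 over both channels of the 4 arrays, that of the dim BCL2L1 probe from 29.6 to 63.6, and that of BCL2L10 (A_23_P163209, chr15:50189159-50189218) from 2.25 to 16.6. The BCL2L1 probe A_23_P210886, which passed, ran from 109 to 230. No level or change is read from the 3 dim probes.

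The counts of the survival genes were set against those of all probes. At an unadjusted limma p of at most 0.005, 0 of the 11 probes were called, and 0.901% of all probes were. After adjustment 0 were called, as were 0% of all probes. The study applied the cutoff of 0.005 to p-values of a different error model, so these counts cannot be set against its own. Of the 11, 2 were higher on all 4 arrays, against 12.8% of all probes, and 1 of these was the dim BCL2A1 probe, while MCL1 A_24_P319635 was the other. None of the 11 was lower on all 4 arrays (0 of 11, against 13.4% of all probes). The median log2 ratio was 0.06 over the 8 probes above background and -0.004 over all 23804 such probes. By absolute mean ratio, 89.9% of those probes were below MCL1 A_24_P319635, 82.4% were below A_24_P336754 and 70.6% were below A_24_P336759. For BCL2L1 A_23_P210886 that share was 8.21%, for BCL2L2 4.45% and for BCL2 A_23_P208132 3.55%.

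**Figure D4:**
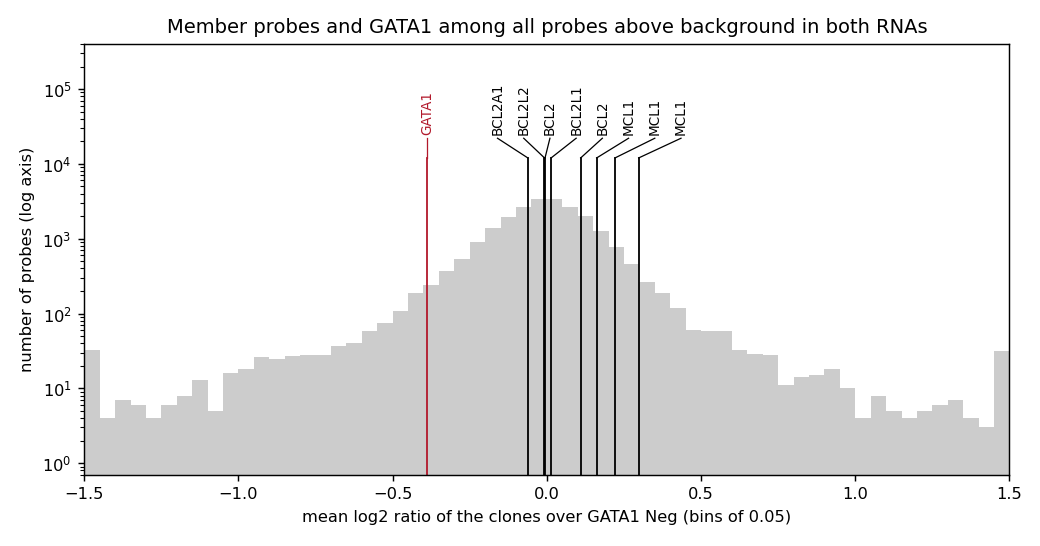
Number of probes (vertical log axis) by mean log2 ratio of the clones over GATA1 Neg (horizontal axis, bins of 0.05) for the 23804 probes above background in both RNAs, with lines at the 8 survival gene probes and at GATA1. The survival gene probes lie between -0.06 and 0.30, inside the body of the distribution, and the outer bins also hold the 56 probes beyond 1.5.

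The partners of the survival proteins were read over 39 of 41 listed gene names on the array, with 67 probes, GATA1 among them. Of these, 0 were called lower and 0 higher, at the adjusted or at the 0.005 threshold. Lower on all 4 arrays were 14 of the 67 and higher were 5, beside the 13.4% and 12.8% of all probes given above, and their median log2 ratio was -0.03. None of the probes named next passed the adjusted test. Among the BH3-only proteins, BCL2L11, which encodes BIM, had clone values of -0.10 and -0.16 for GATA1 5-13 and GATA1 4-14 (A_23_P309996, below 0 on all 4 arrays). The other 4 BCL2L11 probes, also above background, ran from -0.007 to 0.25 in GATA1 5-13 and from -0.24 to -0.10 in GATA1 4-14, so all 5 lay below 0 in GATA1 4-14 and not in GATA1 5-13. BID had 0.36 and -0.01 (A_23_P154929), and 0.27 and -0.09 on its other probe.

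Of the effectors that the survival proteins restrain, BAK1 had clone values of 0.24 and 0.03 and BAX (A_23_P208706) had -0.07 and 0.25, in the same order, with the other 2 BAX probes at -0.05 and 0.09, and at -0.19 and 0.32. CYCS, which encodes cytochrome c, had 0.62 and -0.06 on 1 probe (A_24_P376556). The other CYCS probe above background on all arrays, A_32_P174083, had -0.04 and -0.23, and A_24_P29665, above background on all but 1 array, had -0.06 and -0.08, so the CYCS probes did not share the higher value in GATA1 5-13. The inhibitors of apoptosis BIRC3 and BIRC4, the array's name for XIAP, had -0.70 and -0.18, and 0.65 and -0.07. Of the enzymes that set the turnover of MCL1 protein, the ligase adaptor BTRC had 0.04 and -0.40 (A_23_P46819) and 0.12 and -0.20 on its other probe, and the deubiquitinase USP9X had 0.23 and -0.02. STAT3, a transcription factor downstream of cytokine receptors, had 0.68 and 0.09 (A_24_P116805), and its other 2 probes above background had 0.70 and 0.05, and 0.26 and 0.44.

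The pattern of MCL1 A_24_P319635 over the 4 arrays was set beside those of the 17077 probes with a gene symbol that were above background in both RNAs and belong to no survival gene. The nearest by Euclidean distance over the 4 log2 ratios were CPVL (A_23_P134347, distance 0.062), ST8SIA4 (A_23_P361984, 0.072) and ADK (A_23_P112596, 0.092). CPVL had 0.16, 0.19, 0.39 and 0.38 on the 4 arrays in the order used above. A distance under 0.1 was found for 6 probes.

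The lineage of the labelled cell line was checked by marker genes. Meg-01 and CMK are both megakaryoblastic, so these markers cannot decide between the names in the labels. Of 11 megakaryocyte genes, 7 were well above background in GATA1 Neg, 6 in GATA1 5-13 and 7 in GATA1 4-14, among them ITGA2B, ITGB3, GP9, GP1BA, GP6 and GATA1, whereas PF4, SELP and VWF were not. GP1BA was above background on 1 of 2 probes, and the probe assigned to its RefSeq transcript (A_24_P270829) was not. All 6 erythroid genes were above background in every RNA. Of 3 markers each for T cells and B cells 1 was above background in every RNA (CD3E on 1 of 2 probes, and CD79A), and of 3 for monocytes LYZ was, in GATA1 Neg and GATA1 4-14 and not in GATA1 5-13. The median log2 ratio was -0.11 over the 17 megakaryocyte probes, 7 of them lower on all 4 arrays, and 0.13 over the 9 erythroid probes, and their part in the values of the survival genes was not tested. In bulk RNA, fewer cells of a kind and less RNA per cell cannot be told apart.

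**Figure D5:**
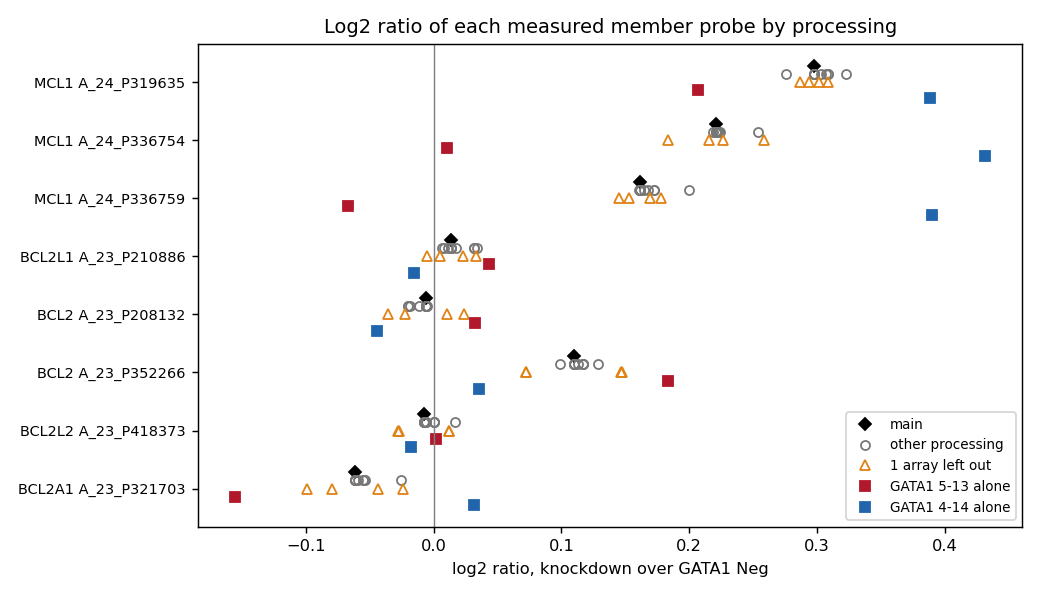
Log2 ratio of clone over GATA1 Neg (horizontal axis) of the 8 survival gene probes above background under the main processing (diamonds), the other processing settings (circles), with 1 array left out (triangles) and in each clone alone (squares). The spread between the clones exceeds the spread between settings for every probe except that of BCL2L2.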

How the data were processed

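Clones and a control pool were compared on 4 two-colour arrays. The authors deposited the output of Agilent Feature Extraction 9.5.3.1, with mean spot intensities and median local backgrounds that are neither corrected nor normalized. The deposited log10 ratio of a spot was made by that program from background-subtracted, dye-normalized signals, and the deposited error of that ratio is a score from its error model. A mark of well above background, coded 0 or 1, was deposited per channel, and a probe was taken as above background where a share of at least 0.5 of its spots were. The series-wide values that the authors deposited are the same log10 ratios, turned to clone over control (largest difference 4.97e-06). How the authors combined the arrays could not be repeated and was approximated by an error-weighted mean.

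The intensities were corrected with normexp (offset 50) over all 45015 spots of an array and normalized by loess, in limma 3.58.1 under R 4.3.3 with tables read by fread (data.table package, version 1.17.8). Control spots and 135 to 152 outlier spots per array were left out, spots of a probe were averaged, and the sign was turned on arrays with the clone in Alexa555. The 2 arrays of a clone, which are not said to hold separate extracts, made 1 replicate. The mean of the 2 clones was tested against 0 by limma's two-sided test, adjusted by Benjamini-Hochberg over 40974 probes. The SEs, confidence intervals and p-values of this test rest on the spread between the clones, which limma moderates toward that of all probes. The total degrees of freedom were 3.07 per probe. The spread of the control is not measured, and the number of clones limits the precision. Levels per RNA were taken after Aquantile between arrays. The test was tried on simulated data.

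The survival genes, the pathway lists, the markers and the tests were chosen with earlier results of these data known. Named were all survival gene probes, GATA1, of each list the probes at an unadjusted p of at most 0.005 or otherwise up to 2 with the largest mean ratio above background, and the 3 nearest patterns to each survival gene probe above background with 1 sign on all arrays. Some results that this rule names are not reported here. A replicate number stands for 1 dye orientation, and the deviations of same-numbered arrays from the clone means correlated at 0.773 over probes, so the number was also used as a block. Feature Extraction's log ratios, offset 10, no background correction, median centring, an intensity trend, keeping outlier spots, a filter on dim probes, the arrays as 4 values, and each array and clone left out were the other alternatives. Sequences came from RefSeq on GRCh38.p14. Probe sequences were not used here. As no survival gene probe was dim in 1 RNA alone, no bound of a fold change was needed.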

Additional observations from a re-analysis of the deposited data

Results flagged for a closer look

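The MCL1 probe A_24_P336759 had opposite signs in the clones, with a log2 ratio of -0.0672 in GATA1 5-13, below 0 on both of its arrays, and 0.39 in GATA1 4-14, above 0 on both. Each clone is 1 replicate, and the difference was not tested.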

How the results depend on the processing

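No direction changed for the 3 MCL1 probes, BCL2 A_23_P352266 and BCL2A1 A_23_P321703 under any processing setting or with any array left out; with 1 clone left out, MCL1 A_24_P336759 and BCL2A1 took both signs. For probes near 0 the sign was not settled. BCL2L2 was 0.017 with median centring, 0.000685 with Feature Extraction's log ratios and the series-wide values, and 0.000682 in the error-weighted mean. With 1 array left out it ran from -0.0276 to 0.0124, BCL2L1 A_23_P210886 from -0.005 to 0.03, and BCL2 A_23_P208132 from -0.04 to 0.02. In each clone alone, GATA1 5-13 then GATA1 4-14, BCL2L1 was 0.0431 and -0.0155 and BCL2 A_23_P208132 was 0.0325 and -0.0444.

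The settings that count the arrays as separate values, or weight them by their own error, called more probes over the whole array. MCL1 A_24_P319635 was 0.31 in the error-weighted mean (adjusted p = 0.037, against 0.037 to 0.732 over all alternatives), which made 1 survival gene call after adjustment and 1 at 0.005, where the 4 arrays without a block also made 1. GATA1 was -0.39 with no block over the 4 arrays (limma adjusted p = 0.049) and -0.40 in the error-weighted mean. Over all probes, called lower after adjustment were 1 with offset 10, 1 with the filter on dim probes, 1 with the intensity trend, 736 with no block, 167 with the replicate block and 1768 in the error-weighted mean, and 0 to 1 with 1 array left out. Called higher were 504, 102 and 1648 in the last 3. At 0.005, called lower were 235 in the main processing, 148 without background correction, 134 with Feature Extraction's ratios and with the series-wide values, 1237 with no block, 1021 with the replicate block and 1823 in the error-weighted mean. Called higher were 134, against 229 with offset 10, 971 with no block, 754 with the block and 1713 in the error-weighted mean. Of the pathway probes, 3 with no block and 5 in the error-weighted mean were called lower after adjustment, and 1 and 6 higher. At 0.005, 2 were called lower without background correction, 4 with no block, 3 with the block and 5 in the error-weighted mean, and 1, 1 and 6 higher in the last 3. The replicate block changed no adjusted call of a survival gene probe.

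With 2 clones against 1 pool, changes of the size seen here could not be called. The probe assignments are those of the array's design.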
